A study of Mus musculus with 2 samples.

Results

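The 8 genes described here are the purine receptors and the ectonucleotidase of microglia, with 1 related receptor: P2ry12, P2ry13, P2ry6, P2rx4, P2rx7, Entpd1, Adora3 and Gpr34. They were taken by symbol from 31053 genes. Gpr34 is not a purine receptor. It belongs with the P2Y12 receptor by protein family and binds lysophosphatidylserine. UMIs (counts of tagged RNA molecules) were read for them in 2 droplet libraries of mouse retina. The OIR library came from wild-type C57BL/6 mice with oxygen-induced retinopathy, a model in which pups breathe excess oxygen and the retina becomes hypoxic after their return to room air. These pups were kept in 75% oxygen between postnatal days 7 and 12 and then in room air, and were taken at postnatal day 17. The control library came from wild-type C57BL/6 mice of postnatal day 17 whose label is control. For each library the retinas of 6 mice were pooled, digested with papain and enriched on magnetic beads for CD11b, an integrin of myeloid cells, so all cells of a group share 1 pool, 1 digestion and 1 bead selection. The study's title concerns a RIP3-positive subset of microglia in retinopathy.

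Cells that are stressed or injured release ATP, ADP and UTP, and microglia read these nucleotides through several receptors. ADP acts on P2Y12 and P2Y13, which couple to inhibitory G proteins. P2Y12 steers microglial processes towards a source of nucleotide, and UDP acts on P2Y6, which is linked to phagocytosis. ATP opens the cation channels P2X4 and P2X7, the second of which can trigger the NLRP3 inflammasome. CD39, encoded by Entpd1, cuts ATP and ADP to AMP, from which CD73 (Nt5e) makes adenosine, a ligand of the A3 receptor encoded by Adora3.

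In mm10 coordinates of the GENCODE annotation, P2ry12 (ENSMUSG00000036353, chr3:59216272-59262871) and P2ry13 (ENSMUSG00000036362, chr3:59207892-59210882) are neighbours on the minus strand, both inside Med12l, a gene of the plus strand. P2rx7 (ENSMUSG00000029468, chr5:122643911-122691432) and P2rx4 (ENSMUSG00000029470, chr5:122707544-122729738) are also neighbours, on the plus strand. Entpd1 (ENSMUSG00000048120) lies at chr19:40612366-40741602 on the plus strand and P2ry6 (ENSMUSG00000048779) at chr7:100937630-100974649 on the minus strand. Adora3 (ENSMUSG00000000562, chr3:105870858-105908926, plus strand) overlaps Tmigd3 on the same strand, so reads of the pair may be split or lost and the Adora3 counts are less certain. Tmigd3 itself had 5 UMIs in OIR and 4 in control microglia-like cells. Gpr34 (ENSMUSG00000040229, chrX:13632089-13640858, plus strand) overlaps Cask on the minus strand. Whether the counting used strand is not given in the sources used here.

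Promoter windows of 250 bases before and 50 after the transcription start, from RefSeq on GRCm38.p6, were at hand for 6 of the 8 genes (8 windows in all). Each was searched on both strands for GAGGAA, a core bound by the myeloid factor PU.1, and for ACGTG, the core of the hypoxia response element. Of 32851 mouse windows of the same length, 28.3% held the first and 19.6% the second, so neither is rare. The 4 windows shown are those of P2ry12 and P2ry13, neighbours with the lowest ratios of OIR over control among the 8, of Adora3, and of P2rx4, which differed least. They lie at chr3:59262936-59263235 (minus strand, P2ry12), chr3:59210833-59211132 (minus strand, P2ry13), chr3:105904171-105904470 (plus strand, Adora3) and chr5:122707294-122707593 (plus strand, P2rx4). Each is written 5′ to 3′ in the direction of its gene, with every match in capitals.
P2ry12: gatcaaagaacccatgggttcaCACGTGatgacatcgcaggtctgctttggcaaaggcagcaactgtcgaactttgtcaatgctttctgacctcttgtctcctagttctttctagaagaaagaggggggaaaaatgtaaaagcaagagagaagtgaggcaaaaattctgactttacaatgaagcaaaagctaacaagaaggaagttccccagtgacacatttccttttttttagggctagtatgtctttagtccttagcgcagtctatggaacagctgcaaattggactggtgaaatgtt
P2ry13: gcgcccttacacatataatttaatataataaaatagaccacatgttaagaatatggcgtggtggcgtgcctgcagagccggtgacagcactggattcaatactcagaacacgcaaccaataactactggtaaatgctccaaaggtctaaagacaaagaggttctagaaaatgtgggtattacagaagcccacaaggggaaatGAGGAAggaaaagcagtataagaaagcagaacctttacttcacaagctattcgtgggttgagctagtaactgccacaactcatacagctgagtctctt
Adora3: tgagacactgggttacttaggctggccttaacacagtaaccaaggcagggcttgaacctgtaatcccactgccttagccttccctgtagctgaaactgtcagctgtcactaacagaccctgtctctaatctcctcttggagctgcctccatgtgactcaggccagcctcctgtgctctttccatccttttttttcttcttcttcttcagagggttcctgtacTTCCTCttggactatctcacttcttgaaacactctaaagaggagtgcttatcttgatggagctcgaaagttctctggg
P2rx4: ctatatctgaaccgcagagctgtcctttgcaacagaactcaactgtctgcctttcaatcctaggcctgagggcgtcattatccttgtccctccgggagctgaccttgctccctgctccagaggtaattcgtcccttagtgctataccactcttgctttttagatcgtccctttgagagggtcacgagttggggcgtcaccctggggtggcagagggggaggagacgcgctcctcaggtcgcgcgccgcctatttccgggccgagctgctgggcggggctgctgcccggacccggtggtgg
P2ry12 had no GAGGAA in its window. Its capitals are ACGTG, read on both strands in overlap, with first bases 228 and 227 bases before the start. P2ry13 had GAGGAA 48 bases before the start, and Adora3 had it 28 bases before the start on the opposite strand, while P2rx4 had neither motif. Both P2rx7 windows and 1 of 2 Entpd1 windows held GAGGAA. In all, 4 of the 6 genes with a window had GAGGAA and 1 had ACGTG. A match describes letters and shows no binding.

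The deposited matrices held 49773742 UMIs in 7283 barcodes for OIR and 50081145 UMIs in 10826 barcodes for control, and 6132 OIR cells (median 2828.5 UMIs) and 8585 control cells (median 1648 UMIs) were kept. The libraries shared 89 cell barcodes, 30 of them among kept cells. With 1 library in each group no difference has a replicate check: intervals are 95% and cover counting error only, and the oxygen treatment cannot be told apart from anything else that set the 2 pools apart. Clusters were formed without the 8 genes and without the other purine pathway genes. Despite the bead selection most cells were rod-like (3603 OIR and 6739 control cells), and 588 OIR and 811 control cells were microglia-like, with all 12 microglia markers detected (summed level 30830 CPM in OIR and 40110 CPM in control, where CPM is the usual scaling of UMIs to the class total).

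The microglia-like cells of the libraries lay in different clusters. Of the 588 OIR cells, 240 were in a cluster high in Mmp12 and Spp1 and 190 in a shallow cluster high in Ube2c and Cst7, against 17 and 5 control cells in the same 2 clusters. The name of the first describes its OIR cells only, since its 17 control cells held 0 Spp1 UMIs and 1 Mmp12 UMI. The clusters called resting-gene clusters held 62 OIR and 560 control cells. In them a list of resting-microglia genes stood highest among the state lists. Its mean log2 fold over the other microglia-like cells was 0.54, 0.53 and 0.51. Their leading genes over other myeloid cells included Ccl4 and Ccl3, Selplg and Tmem119, or Icam1 and Atf3. Of these only Selplg and Tmem119 are on the list, so the name does not describe every cluster's leading genes. A cluster with rod RNA held 54 OIR and 106 control cells, and a shallow cluster led by Ccl5 held 42 OIR and 123 control cells. By UMIs, the Mmp12- and Spp1-high cluster made up 72.9% of the OIR and 3.11% of the control microglia-like sum, and the resting-gene clusters 6.98% of the OIR and 75.9% of the control sum. RNA of other cells was present in them too. The haemoglobin genes led the Mmp12- and Spp1-high cluster over other myeloid cells, ahead of Mmp12 and Spp1, with an erythroid marker sum of 6757 CPM in OIR and 9.67 CPM in control, and the cone genes Opn1sw and Pde6h led the Ube2c- and Cst7-high cluster, ahead of Ube2c and Cst7 (cone marker sum 1034 CPM in OIR). The part of that RNA in the levels given next was not tested.

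Over all microglia-like cells, 7 of the 8 genes were at least 1.5-fold lower in the OIR library with an interval that excluded no difference, and P2rx4 was the exception. Of the 6071 genes that reached 20 CPM in either library, 18.0% were lower by the same rule and 11.3% were higher. The log2 ratio, always OIR over control unless said otherwise, had a median of -1.03 over the 8 genes and -0.12 over all genes tested. With libraries scaled by the median of gene ratios instead of by totals, a shift of -0.105 on the log2 scale, the split over all genes was 816 lower and 858 higher, against 1095 lower and 687 higher by totals, and the P2rx4 ratio was 0.07 instead of -0.04.

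The ADP receptors were the furthest apart. P2ry12 had 3364 UMIs in OIR microglia-like cells, a level of 537 CPM (interval 519 to 555), against 10599 UMIs and 1595 CPM (1565 to 1626) in control cells. P2ry13 had 550 UMIs and 87.8 CPM (80.6 to 95.4) in OIR cells and 1753 UMIs and 264 CPM (252 to 277) in control cells. Both were about equally lower in OIR, P2ry12 by 2.97-fold (log2 ratio -1.57, interval -1.63 to -1.52) and P2ry13 by 3.01-fold (-1.59, interval -1.73 to -1.45), and in neither did the levels' intervals overlap. Per cell, the number of P2ry12 UMIs had a median of 2 in OIR (lowest 0, highest 43) and of 10 in control (lowest 0, highest 86).

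The UDP receptor differed less. P2ry6 stood at 178 CPM (168 to 189, 1118 UMIs) in OIR and 290.2 CPM (277 to 303, 1928 UMIs) in control microglia-like cells, 1.63-fold lower in OIR (log2 ratio -0.70, interval -0.81 to -0.60). The levels' intervals lay apart, but the ratio was -0.52, short of 1.5-fold, when cells with at least 1000 genes and at most 5% mitochondrial UMIs were clustered and named again.

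The ATP-gated channels, adjacent on chromosome 5, went separate ways. P2rx4 had 80.3 CPM (73.4 to 87.6, 503 UMIs) in OIR and 82.5 CPM (75.7 to 89.7, 548 UMIs) in control cells, with a log2 ratio of -0.04. Its interval of -0.22 to 0.14 bounds a difference in either direction without showing that there was none. P2rx7 had 37.8 CPM (33.2 to 43.0, 237 UMIs) in OIR and 68.0 CPM (61.9 to 74.6, 452 UMIs) in control cells, 1.80-fold lower in OIR (log2 ratio -0.85, interval -1.08 to -0.62). The P2rx7 ratio was -0.37 when border macrophage-like cells, which are rich in P2rx7 and more numerous in OIR, were pooled with the microglia-like cells.

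Entpd1, whose product degrades the ligands of the P2 receptors, had 89.4 CPM (82.1 to 97.1, 560 UMIs) in OIR and 166 CPM (157 to 177, 1106 UMIs) in control cells. It was 1.86-fold lower in OIR (log2 ratio -0.90, interval -1.05 to -0.75). Adora3, the adenosine receptor of the group, had 36.7 CPM (32.1 to 41.8, 230 UMIs) in OIR and 87.6 CPM (80.6 to 95, 582 UMIs) in control cells and was 2.39-fold lower in OIR (log2 ratio -1.26, interval -1.48 to -1.03). Neither pair of levels overlapped.

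Gpr34, the lysophosphatidylserine receptor, had 486 CPM (468 to 503, 3043 UMIs) in OIR and 1082 CPM (1057 to 1107, 7188 UMIs) in control cells. It was 2.23-fold lower in OIR, with a log2 ratio of -1.16 (interval -1.22 to -1.09). Gpr34 is X-linked, and the pools differed in Y-linked RNA: Ddx3y was at 7.34 CPM in OIR and 25.6 CPM in control microglia-like cells, while Xist was at 935 CPM in OIR and 968 CPM in control. The sexes pooled in each group are not given, and their part in the result was not tested.

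**Figure D1:**
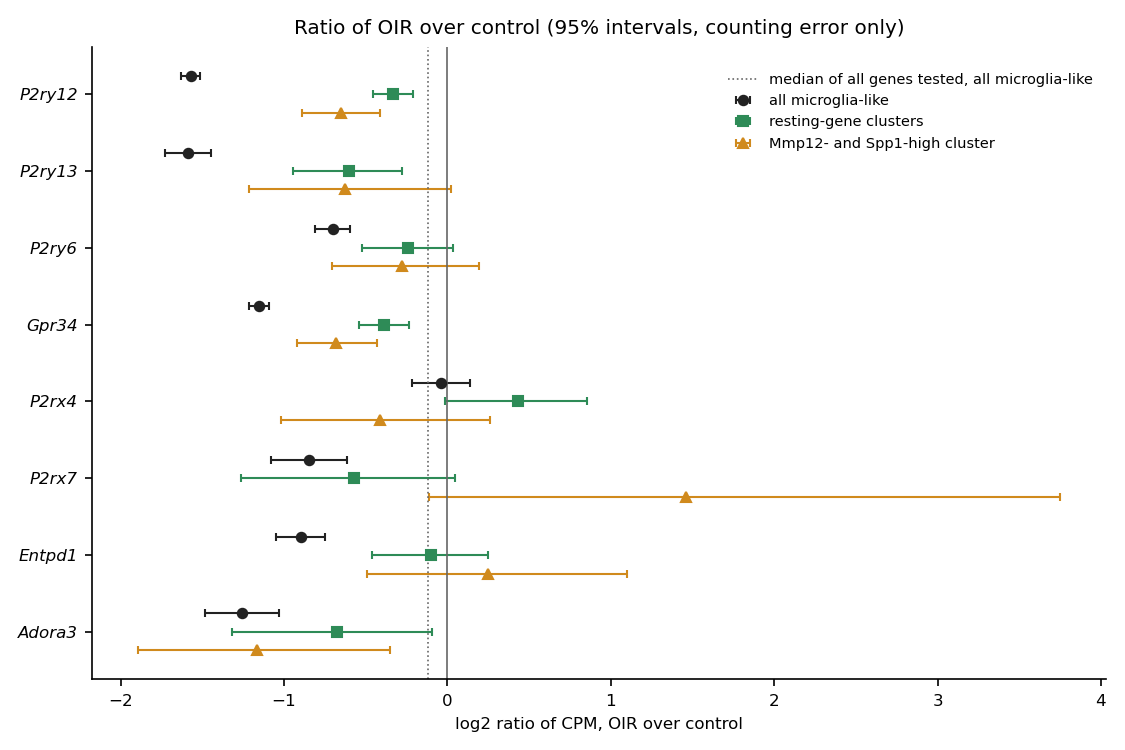
Log2 ratio of CPM, OIR over control, for each gene (rows) in all microglia-like cells (circles), in the resting-gene clusters (squares) and in the Mmp12- and Spp1-high cluster (triangles), with 95% intervals of counting error; the dotted line is the median of all genes tested in microglia-like cells, -0.12. Each circle lies left of the square of its gene, and the P2ry12 circle is at -1.57 against -0.33 for its square.

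In the resting-gene clusters 7 of the 8 genes had ratios nearer to 0 than over all microglia-like cells, while P2rx4 was further from it. By the 1.5-fold rule, 2 of the 8 genes were lower in OIR there, P2ry13 and Adora3, and 0 were higher, where 4.79% of 6185 genes tested were lower and 5.21% higher. The median log2 ratio there was -0.36 over the 8 genes and 0.00 over all genes. P2ry12 was at 1344 CPM (1238 to 1458) in the 62 OIR cells and 1694 CPM (1658 to 1730) in the 560 control cells, a log2 ratio of -0.33 (interval -0.46 to -0.21), lower in OIR but short of 1.5-fold. Gpr34 was at 878 CPM in OIR and 1147 CPM in control (log2 ratio -0.39, interval -0.54 to -0.24).

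The 2 genes past the rule in those clusters rest on few OIR molecules. P2ry13 was at 183 CPM (80 UMIs) in OIR and 277 CPM (1398 UMIs) in control, a log2 ratio of -0.60 (interval -0.95 to -0.28). Adora3 was at 57.2 CPM (25 UMIs) in OIR and 91.3 CPM (460 UMIs) in control, a log2 ratio of -0.68 (interval -1.32 to -0.10). For P2ry6 (-0.24), P2rx7 (-0.57) and Entpd1 (-0.10) the intervals of the log2 ratio included 0. P2rx4 was the only member with a higher level in OIR in these clusters, 117 CPM (87 to 153) against 86.3 CPM (78.4 to 94.8) in control, and its ratio of 0.43 had an interval of -0.01 to 0.86.

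In the Mmp12- and Spp1-high cluster, P2ry12, Gpr34 and Adora3 were lower in OIR by the 1.5-fold rule and 0 members were higher, where 6.74% of 6011 genes were lower and 5.41% higher. The ratios in this cluster compare unlike cells. Spp1 was at 1829 CPM and Mmp12 at 475 CPM in its OIR cells, against 0 and 1 UMIs in its control cells. Ube2c was at 58.0 CPM in OIR and 130.5 CPM in control. P2ry12 was at 479 CPM (460 to 500) in the 240 OIR cells and 754 CPM (641 to 882) in the 17 control cells, a log2 ratio of -0.65 (interval -0.89 to -0.41). Gpr34 was at 461 CPM in OIR and 740 CPM in control (log2 ratio -0.68), and Adora3 at 36.6 CPM in OIR and 82.2 CPM in control (log2 ratio -1.17, interval -1.89 to -0.35). P2rx7 had 182 UMIs (39.9 CPM) in OIR and 3 UMIs (14.5 CPM) in control, so its ratio of 1.46 had an interval of -0.11 to 3.75. Entpd1 was at 86.1 CPM in OIR and 72.5 CPM in control, with an interval of the log2 ratio of -0.49 to 1.10. In the cluster with rod RNA 5 members were lower in OIR (P2ry12, P2ry13, P2rx7, Adora3 and Gpr34) and the median ratio of the 8 was -0.84, where 6.07% of genes tested were lower and 7.76% higher. In the shallow Ccl5-led cluster P2ry12 alone was lower in OIR (393 CPM in OIR and 613 CPM in control), where 0.765% of genes tested were lower and 4.15% higher, on 30 OIR and 151 control UMIs of P2ry12.

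Weighting the OIR level of each state by the share of UMIs which that state had in control gives the OIR level at the control library's make-up, a calculation chosen after the data had been seen. P2ry12 was then at 1178 CPM in OIR against 1595 CPM in control, a log2 ratio of -0.44 in place of -1.57. The ratio was -0.62 for P2ry13, -0.45 for Gpr34, -0.15 for Entpd1, -0.21 for P2ry6, -0.57 for P2rx7, -0.74 for Adora3 and 0.35 for P2rx4. All 8 values lay above those without the weighting, with P2ry12 moving furthest and P2rx7 least. The OIR level of the resting-gene clusters, which gets most of the weight, rests on 62 cells.

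**Figure D2:**
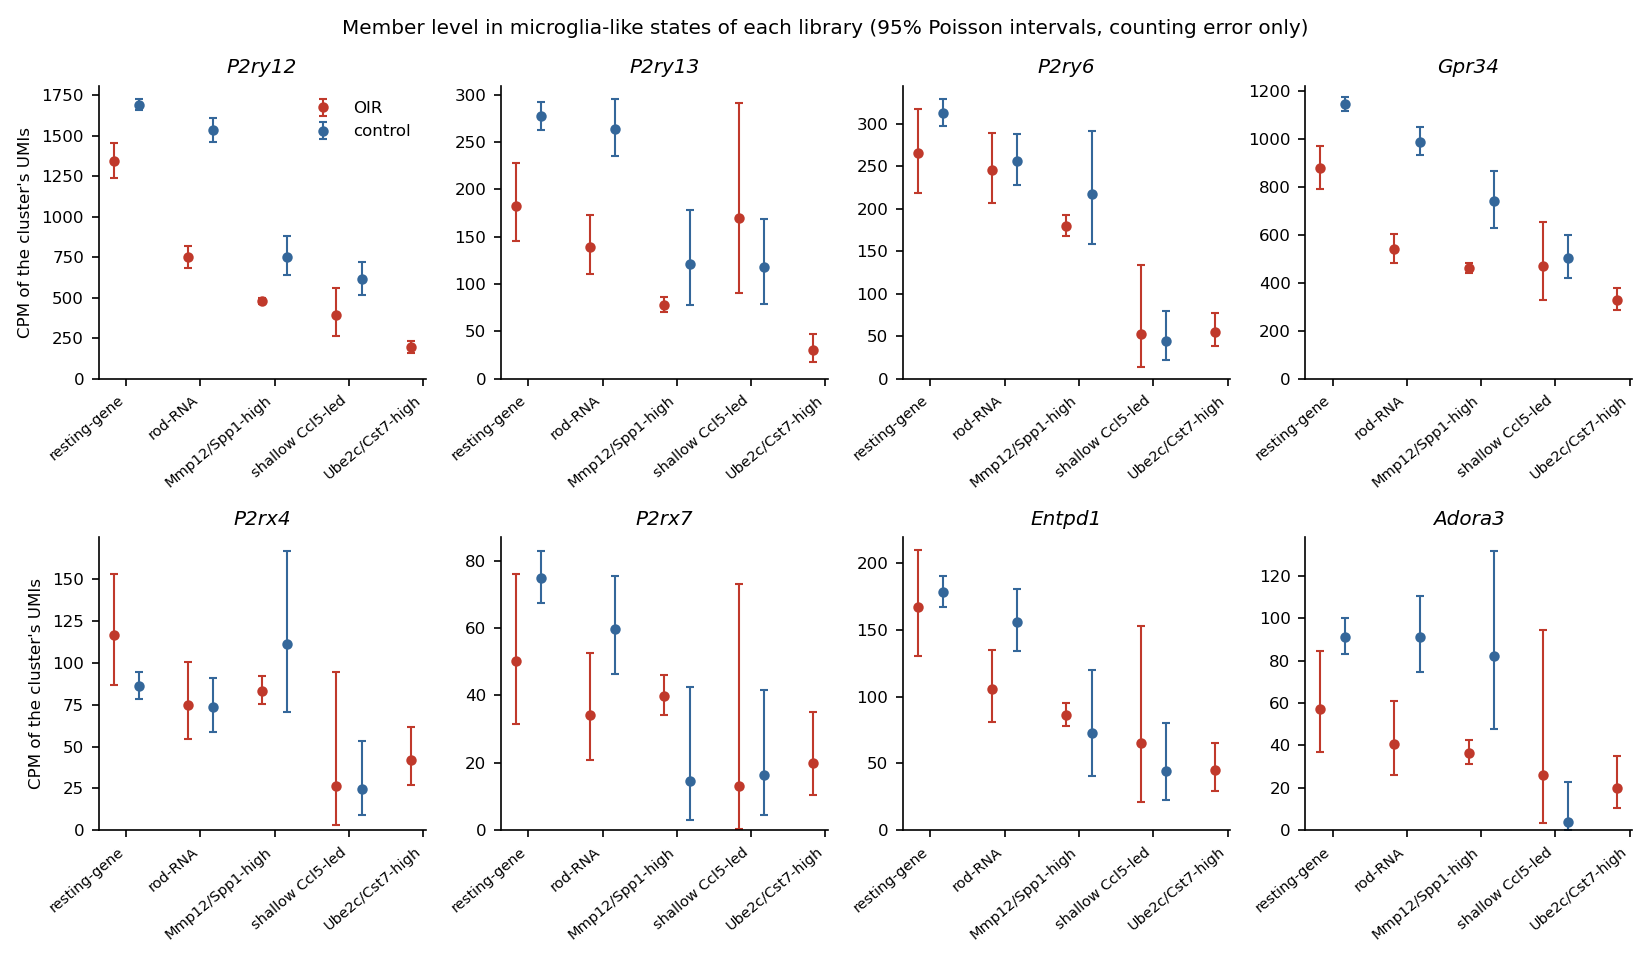
Level of each gene (CPM, vertical axis, 1 panel for each gene) in 5 microglia-like states of the OIR library (red) and the control library (blue), with 95% Poisson intervals; the control point of the Ube2c- and Cst7-high cluster (5 cells) is left out. P2ry12 steps down between states in both libraries. Gpr34 does so in control, but in OIR it was at 461 CPM in the Mmp12- and Spp1-high and 471 CPM in the shallow Ccl5-led cluster. P2rx4 in OIR was at 117 CPM in the resting-gene clusters and 83.4 CPM in the Mmp12- and Spp1-high cluster.

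Among states with at least 10 cells, all 8 genes had their highest level in the resting-gene clusters in OIR, but only for P2ry12 and Gpr34 did its interval lie apart from that of the next state. In control 7 of 8 had their highest level there, and P2rx4 had it in the Mmp12- and Spp1-high cluster with overlapping intervals. For P2ry12 in OIR the order was resting-gene clusters (1344 CPM), rod-RNA cluster (749 CPM), Mmp12- and Spp1-high cluster (479 CPM), shallow Ccl5-led cluster (393 CPM) and Ube2c- and Cst7-high cluster (195 CPM), and of these neighbours the third and the fourth overlapped. In control it was 1694, 1536, 754 and 613 CPM over the first 4 of these states, with the last pair overlapping. At clustering resolutions 0.5 and 2 the resting-gene clusters stayed first for P2ry12, but the order below them changed. At 0.5 the OIR intervals of the rod-RNA state (532 CPM) and the Spp1, Lgals3 and Mmp12 state (469 CPM) overlapped. At 2 an OIR state led by Cst7 and related genes came second (661 CPM), ahead of the rod-RNA state (507 CPM). The P2rx4 order depended on the resolution too. At 0.5 its control level was 198 CPM (144 to 266) in the Spp1, Lgals3 and Mmp12 state and 86.75 CPM (79.0 to 95.1) in the resting-gene clusters. At 2 it was 229.5 CPM (156 to 326) in cells led by cell cycle genes and 85.9 CPM in the resting-gene clusters. At 2 P2rx7 peaked outside the latter in both libraries, with overlapping intervals.

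The step between the resting-gene clusters and the Mmp12- and Spp1-high cluster differed in size between genes. In OIR, P2ry12 was 2.80-fold lower in the Mmp12- and Spp1-high than in the resting-gene clusters (log2 ratio -1.49, interval -1.62 to -1.35) and P2ry13 was 2.34-fold lower (-1.23, interval -1.58 to -0.86). Entpd1 (-0.96) and Gpr34 (-0.93) were intermediate, and P2ry6 was at -0.56 (interval -0.84 to -0.27). Adora3 was at -0.64 (interval -1.26 to 0.02). The channels had the smallest estimated steps in OIR, P2rx4 with -0.48 (interval -0.91 to -0.03) and P2rx7 with -0.34 (interval -0.98 to 0.37), the second of which included 0. Both intervals overlapped those of P2ry6 and Adora3, so the channels are not set apart from these. In control, the corresponding P2ry12 step was -1.17 (interval -1.41 to -0.94) and that of Gpr34 was -0.63. The control cells of the Mmp12- and Spp1-high cluster held 0 Spp1 UMIs and 1 Mmp12 UMI, so the 2 libraries' steps lead to unlike cells. The channels did not have the smallest steps in control: P2rx7 was at -2.37 (interval -4.65 to -0.81, with 3 UMIs in the Mmp12- and Spp1-high cells) and P2rx4 at 0.36 (interval -0.31 to 0.97). Adora3 had the smallest, -0.15 (interval -0.94 to 0.54).

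Ube2c- and Cst7-high cells had the lowest OIR levels of P2ry12 (195 CPM), P2ry13 (29.98 CPM) and Gpr34 (329.8 CPM) among the 5 states. The Mmp12- and Spp1-high cells of OIR were at 479 CPM for P2ry12 and 461 CPM for Gpr34. These cells had a median of 2129.5 UMIs, against 15605 in the Mmp12- and Spp1-high cells. Without this cluster the P2ry12 ratio over microglia-like cells was -1.48.

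Counted by cells, P2ry12 was detected in fewer OIR cells at equal depth. After thinning each cell to 1500 UMIs, which left out 78 OIR and 53 control cells, 42.6% of OIR microglia-like cells (interval 38.2% to 47.0%) and 84.7% of control cells (81.9% to 87.2%) had a P2ry12 UMI. Without thinning the shares were 65.5% in OIR and 92.6% in control. Rod-like cells, which should lack the gene, had a share of 0.447% in OIR and 0.505% in control after the same thinning, and before it their median depth was 1490 UMIs in OIR and 1404 in control, against 6724 in OIR and 6887 in control microglia-like cells.

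Gpr34 was detected in 45.3% of OIR and 72.6% of control microglia-like cells, and P2ry13 in 11.4% of OIR and 30.5% of control cells. The shares were 19.4% in OIR and 31.9% in control for P2ry6, 11.6% in OIR and 21.6% in control for Entpd1, 3.53% in OIR and 12.5% in control for Adora3, and 4.12% in OIR and 9.24% in control for P2rx7. In each of these the interval of the OIR share lay below that of the control share. P2rx4 was detected in 10.4% of OIR cells (7.88% to 13.4%) and 13.2% of control cells (10.9% to 15.8%), with overlapping intervals.

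**Figure D3:**
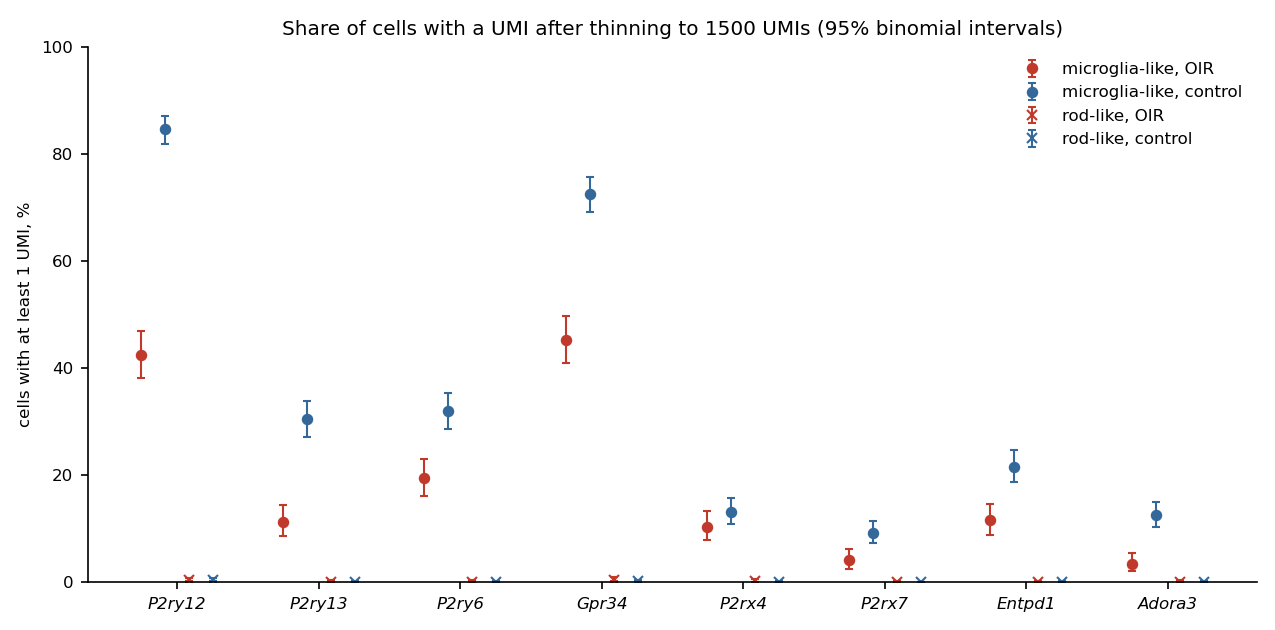
Share of cells with at least 1 UMI of each gene (percent, vertical axis) after thinning to 1500 UMIs, in microglia-like cells (filled circles) and rod-like cells (crosses) of the OIR library (red) and the control library (blue), with 95% binomial intervals. The P2ry12 share is 42.6% in OIR and 84.7% in control microglia-like cells, and no rod-like share exceeds 0.505%.

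Within 1 state of the OIR library, Entpd1 was detected more often in cells that had a P2ry12 UMI. Of 113 OIR Mmp12- and Spp1-high cells with a P2ry12 UMI at the thinned depth, 24.8% had an Entpd1 UMI (interval 17.1% to 33.8%), against 5.65% (2.30% to 11.3%) of the 124 cells without one. P2ry13 was detected in 15.9% (9.72% to 24.0%) of the first and 4.84% (1.80% to 10.2%) of the second, with intervals that overlap. For P2rx4 the shares were 15.0% and 12.9%, and for P2rx7 7.08% and 6.45%, with overlapping intervals for both channels. They were 53.1% and 40.3% for Gpr34, 9.7% and 3.2% for Adora3, and 15.9% and 17.7% for P2ry6, also with overlapping intervals. Only for Entpd1 did the intervals lie apart in this cluster. Over all microglia-like cells, which mix the states, they lay apart for Entpd1 and Gpr34 in OIR, and for P2ry13, Adora3 and Gpr34 in control. Gpr34 was detected there in 53.5% of OIR cells with a P2ry12 UMI and 39.25% of those without. In the OIR resting-gene clusters Entpd1 was detected in 24.4% of 41 cells with a P2ry12 UMI and 16.7% of 18 without, with overlapping intervals. In the resting-gene clusters of the control library, Entpd1 was detected in 23.8% of 479 cells with a P2ry12 UMI and 29.7% of 74 cells without, with overlapping intervals. Cells of 1 library are not replicates, and these shares describe that library.

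Among rod-like cells, most of the genes were near the level at which the microglia markers were found, a measure of free RNA. Border macrophage-like cells were different, with the summed markers at 69.5% of their microglia-like level in OIR and 78.5% in control. The lowest single marker was at 6.99% in OIR and 4.09% in control there, so the sum does not measure free RNA in that class. The genes lay on both sides of it, with P2ry12 at 34.2% and P2rx7 at 370% in OIR. Microglia-like cells held 91.4% of all P2ry12 UMIs of kept OIR cells and 96.7% of those of control cells, and at least 77.6% of the UMIs of each gene in OIR other than the 2 channels. The share was 55.8% in OIR and 76.4% in control for P2rx4, and 56.97% in OIR and 93.6% in control for P2rx7. In rod-like cells the P2ry12 level was 0.454% of that in microglia-like cells in OIR and 0.175% in control, against 0.439% in OIR and 0.213% in control for the summed microglia markers.

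P2rx4 was above that level in Müller glia-like and bipolar-like cells, and also in rod-like, cone-like and endothelial-like cells. In Müller glia-like cells it had 140 UMIs (14.4 CPM, interval 12.1 to 16.9) in OIR and 79 UMIs (20.7 CPM, 16.4 to 25.8) in control. That is 17.9% of its microglia-like level in OIR and 25.1% in control, whereas the microglia markers stood at 0.273% in OIR and 0.169% in control. P2rx7, with 10 UMIs, was at 2.71% of its microglia-like level (interval 1.30% to 4.99%) in OIR Müller glia-like cells, also above the markers, and with 2 UMIs at 0.771% (0.0933% to 2.78%) in control. The log2 ratio of P2rx4 was -0.53 (interval -0.94 to -0.11), short of 1.5-fold, in a class where 11.3% of 6964 genes were lower and 5.9% higher. In bipolar-like cells P2rx4 had 6.95 CPM in OIR and 6.81 CPM in control, 8.66% of its microglia-like level in OIR and 8.25% in control. It was at 2.57% in OIR (22 UMIs) and 0.541% in control rod-like cells (8 UMIs, interval 0.234% to 1.07%), with markers at 0.439% and 0.213%. Its log2 ratio in rod-like cells was 2.21 (interval 0.99 to 3.58), on levels of 2.06 CPM in OIR and 0.446 CPM in control. The part of free RNA in that ratio was not tested. In cone-like cells P2rx4 was at 1.08% in OIR and 1.80% in control (markers 0.232% and 0.144%). In control endothelial-like cells it was at 20.9% (interval 10.8% to 36.5%, markers 2.08%), on 12 UMIs. In those of OIR it was at 6.24% (0.756% to 22.6%, markers 0.203%), on 2 UMIs. P2rx7 was also above the markers in endothelial-like cells, at 13.25% (1.60% to 47.9%) in OIR on 2 UMIs and 8.44% (2.30% to 21.6%) in control on 4 UMIs.

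P2rx7 was richest in border macrophage-like cells, myeloid cells marked by Pf4, Mrc1 and Lyve1 (89 OIR and 15 control cells). It was at 140 CPM (119 to 164, 157 UMIs) in those of OIR and 128 CPM (66.3 to 224, 12 UMIs) in those of control. The OIR level was higher than in the resting-gene microglia-like clusters by 1.48 on the log2 scale (interval 0.83 to 2.19). P2rx4 was at 158 CPM in OIR and 321 CPM in control border macrophage-like cells. Adora3 had 6 UMIs (5.34 CPM) in OIR and 2 UMIs in control cells of this class, and P2ry12 was at 184 CPM in OIR and 321 CPM in control. The microglia markers summed to 21430 CPM in OIR and 31480 CPM in control in this class, and their part in these levels was not tested.

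Entpd1 was the member with most RNA in endothelial-like cells. It had 8 UMIs (20.04 CPM, interval 8.65 to 39.5) in 13 OIR cells and 72 UMIs (103 CPM, 80.8 to 130.1) in 42 control cells, which was 22.4% of its microglia-like level in OIR and 62.1% in control. The microglia markers stood at 0.203% in OIR and 2.08% in control there. The cells are few and the class has no ratio by the rule of at least 200 cells in each library.

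**Figure D4:**
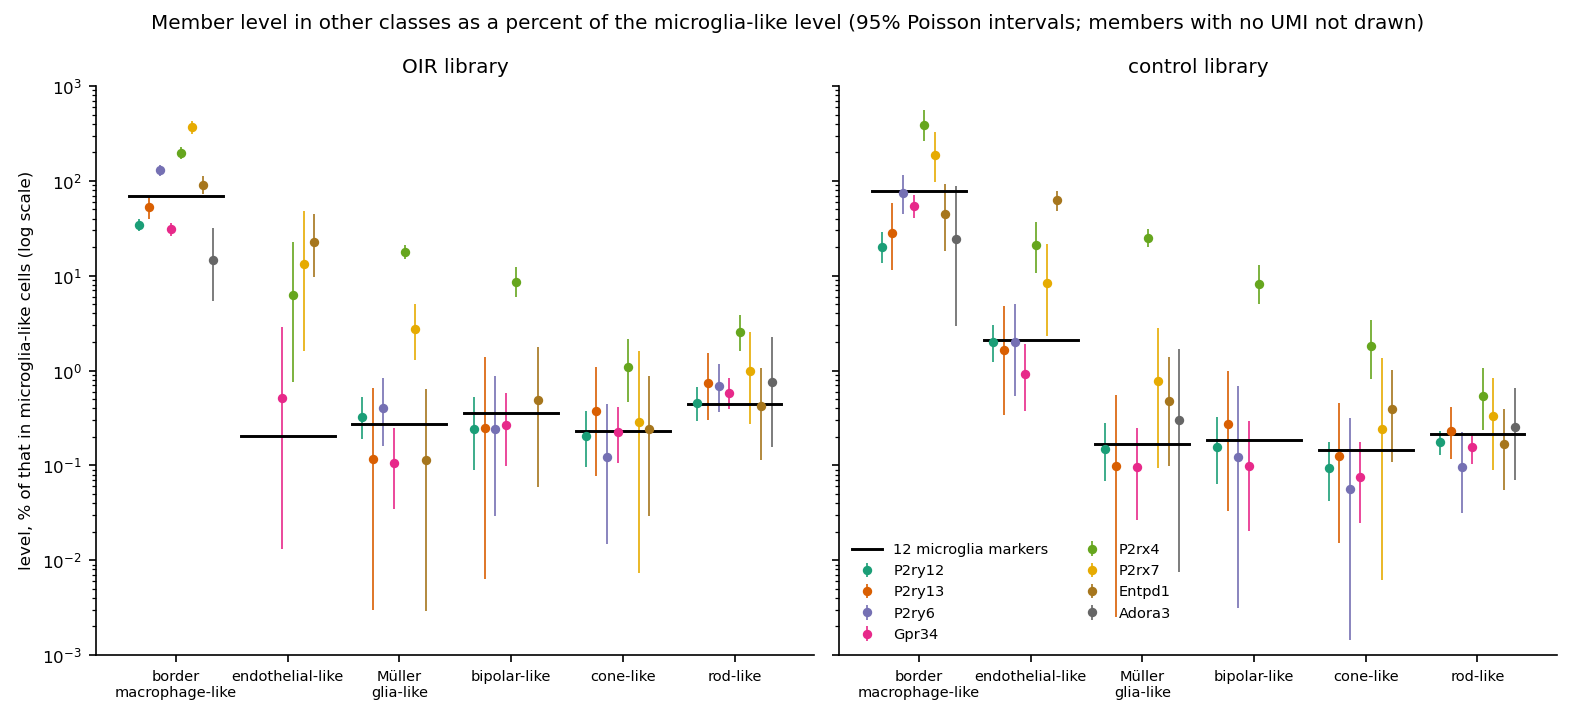
Level of each gene in other classes as a percent of its level in microglia-like cells of the same library (log axis; OIR left, control right), with 95% Poisson intervals; black bars mark the summed 12 microglia markers in that class. P2rx4 lies far above the bar in Müller glia-like cells (17.9% in OIR, 25.1% in control) and Entpd1 in endothelial-like cells, while P2ry12 and Gpr34 stay near the bar in rod-like cells.

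Of 58 other genes of the purine pathway, 21 reached 20 CPM in microglia-like cells of 1 library. By the 1.5-fold rule 10 of the 21 were lower in OIR and 0 were higher, where 18.0% of all genes tested were lower and 11.3% higher. The median log2 ratio was -0.54 over the 21 and -0.12 over all genes. No other P2X channel, adenosine receptor or ectonucleotidase on the list reached 20 CPM, and Nt5e, encoding CD73, had 67 UMIs in OIR and 58 in control cells. Of these Nt5e UMIs, 21 in OIR and 38 in control lay in the rod-RNA cluster, and 0 and 18 in the resting-gene clusters. In rod-like cells Nt5e was at 233.5 CPM in OIR and 285.9 CPM in control, and the part of rod RNA in these UMIs was not tested. Of the other receptors only Lpar6, for lysophosphatidic acid, reached 20 CPM, with 30.3 CPM in OIR and 78.7 CPM in control (log2 ratio -1.38, interval -1.62 to -1.13).

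Among genes for nucleotide release and response, Calhm2, a large-pore channel, was at 15.2 CPM in OIR and 50.9 CPM in control (log2 ratio -1.75, interval -2.09 to -1.41), and Lrrc8a, of the volume-regulated anion channel, had a ratio of -0.75. Kcnk13, the potassium channel THIK-1 of microglia, was at 55.8 CPM in OIR and 73.9 CPM in control (log2 ratio -0.40, interval -0.61 to -0.20), short of 1.5-fold. Of the nucleoside genes, Pnp, which cleaves inosine and guanosine, was at 218 CPM in OIR and 397 CPM in control (log2 ratio -0.86), and the transporter genes Slc29a3 and Slc29a1 had ratios of -0.87 and -0.54, the second short of 1.5-fold.

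Downstream, 5 of 12 genes were lower in OIR by the rule and 0 higher, against the same 18.0% and 11.3% of all genes. Irf8, a transcription factor of microglia that acts upstream of P2X4 in spinal microglia after nerve injury, was at 321 CPM in OIR and 622 CPM in control (log2 ratio -0.96), and Irf5, which induces P2rx4 there, had a ratio of -0.72. Pik3cg (-0.92), Plcb2 (-0.92) and Nlrp3 (-0.71) were also lower in OIR. Il1b, the cytokine processed by the inflammasome, was at 212 CPM in OIR and 152 CPM in control (log2 ratio 0.48, interval 0.37 to 0.60) and Rac2 at 239 CPM in OIR and 181 CPM in control (0.40), both short of 1.5-fold. Pycard, the inflammasome adaptor (0.09), Itgb1 (0.22) and Gnai2, of the inhibitory G protein (0.05), were within 1.5-fold. Gnaq (-0.34) and Casp1 (-0.54) were not past the rule, nor were Abhd12 (-0.04), which degrades lysophosphatidylserine, and Abhd16a (-0.32), which makes it.

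**Figure D5:**
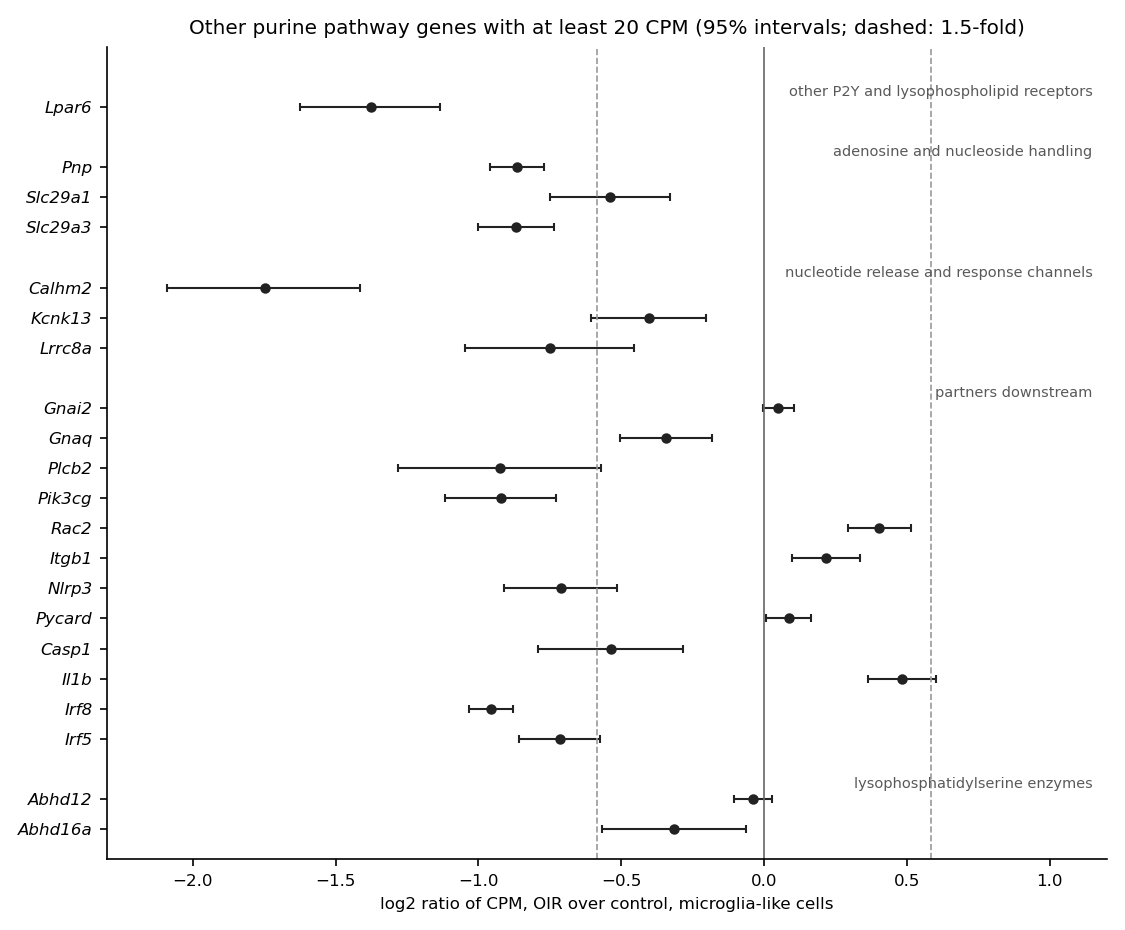
Log2 ratio of CPM, OIR over control, in microglia-like cells for the 21 other pathway genes that reached 20 CPM, grouped by role, with 95% intervals; dashed lines mark 1.5-fold. Calhm2 has the lowest ratio (-1.75) and Il1b the highest (0.48).

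In the resting-gene clusters 3 of 22 pathway genes tested were lower in OIR, Lpar6 (-0.76), Kcnk13 (-0.84) and Calhm2 (-1.07), and 0 were higher, where 4.79% of all genes were lower and 5.21% higher. In the Mmp12- and Spp1-high cluster Slc29a3 (-0.91), Casp1 (-1.30) and Enpp2 were lower in OIR, the last with 4 OIR and 5 control UMIs. Of all genes tested there, 6.74% were lower and 5.41% higher. Il1b was higher, at 229 CPM in the OIR and 87.0 CPM in the control cells of that cluster (log2 ratio 1.396, interval 0.73 to 2.16). These control cells held 0 Spp1 UMIs, so they are unlike the OIR cells of the cluster.

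Across 16 sums of myeloid clusters by library with at least 20 cells, the genes differed in how closely their level followed that of P2ry12. Pearson's r of log2(CPM + 10) with P2ry12 was 0.98 for Gpr34, 0.97 for P2ry13, 0.90 for Entpd1 and 0.80 for Adora3, but 0.57 for P2ry6, 0.48 for P2rx4 and 0.39 for P2rx7. P2ry6 and P2rx4 had an r of 0.86 with each other. Among 2925 genes with at least 50 CPM, the profiles most like that of P2ry12 were those of Itgb5 (0.98), Tmem119 (0.98) and Gpr34 (0.98). The closest to P2rx4 were Plod1 (0.94), Ccl2 (0.94) and Il4ra (0.92), the closest to P2rx7 were Maf (0.94), Nrp1 (0.90) and Cltc (0.88), and the closest to Adora3 were Iffo1, Csnk1e and Mlxipl (each 0.94). The 16 points share 2 libraries, and their depths differ.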

How the data were processed

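Per the labels, retinal cells were selected on CD11b beads and profiled on a 10x droplet platform. Per the submitters' processing notes the authors used Cell Ranger 3.0.2 and mm10, and the deposited matrices hold UMI counts that are not normalised. Cells with at least 500 genes and at most 10% mitochondrial UMIs were kept. Scrublet (in Scanpy 1.11.5) called 0 OIR and 1 control doublet by itself, so the barcodes with its highest scores were removed at 0.8% for every 1000 barcodes (424 OIR and 938 control). Cells were clustered (2000 variable genes, 30 components, 20 neighbours, Leiden resolution 1), and myeloid clusters were clustered again. Names needed a mean log2 fold of 0.5 and 3 detected markers. UMIs were summed by class and library. CPM has exact Poisson intervals, shares have Clopper-Pearson intervals and ratios have conditional binomial intervals (SciPy 1.17.1), with no test. Intervals cover counting error only. The ratio and call code was tested on simulated data.

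The 8 members were always named, as was any pathway gene with at least 20 CPM in 1 library, and 3 genes of closest profile for P2ry12, P2rx4, P2rx7 and Adora3. A gene was called at 1.5-fold with an interval excluding 0. Members, lists and states were chosen with earlier results of these data known. The alternatives tried changed scaling, cell filter, doublets, resolution, clustering genes, the choice of microglia-like cells, fold, CPM minimum and thinned depth.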

Additional observations from a re-analysis of the deposited data

How the results depend on the processing

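No paired analysis was possible because each group has 1 library. The median log2 ratio of the 8 genes, -1.03, was -0.29, -0.52, -0.38 and -0.30 in the clusters led by Ccl4, by haemoglobin genes with Mmp12, by Selplg and by Icam1 alone. It was -0.84 in the rod-RNA cluster and 0.23, over 7 genes, in the Ccl5-led cluster. Of alternatives chosen after seeing the data, it was -0.36 in the resting-gene clusters together, -0.78 without them, and -0.44 with OIR states at control shares. At a fold of 2, 4 members, 2 pathway genes and 315 of all genes were lower in OIR and 300 of all genes higher. At 50 CPM, 632 of all genes were lower and 418 higher, and with no CPM minimum 1834 were lower and 1593 higher. Pathway genes higher in OIR, 0 at first, were 3 with no CPM minimum and 1 under median-of-ratios scaling. Of the 7 genes lower over all cells, single clusters gave a positive ratio for Entpd1 (0.09 in the Ccl4-led, 0.25 in the Mmp12- and Spp1-high and 0.55 in the Ccl5-led cluster), for P2rx7 (1.46 in the Mmp12- and Spp1-high cluster, 3 control UMIs) and for P2ry13 (0.53) and P2ry6 (0.23) in the Ccl5-led cluster, as did pairs with under 3 UMIs in 1 library: Adora3 (2.69) in the Ccl5-led cluster, and P2ry12 (1.06) and Gpr34 (1.82) in the Ube2c- and Cst7-high cluster. Their intervals all included 0, and fewer UMIs enter by construction. The stricter cell filter left the Mmp12- and Spp1-high cluster unnamed, and the P2ry12 ratio was then -1.19, or -1.59 with the names kept. A gate by markers in each cell gave -1.79 for P2ry12. Depth limits Adora3, P2rx7 and P2rx4 most, which had at most 51 UMIs in the OIR resting-gene clusters.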
